A study of Mus musculus with 9 samples.

Results

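The 10 transcription regulators followed here build and maintain the B cell lineage, and they were measured across 9 mouse lymphomas: Pax5, Ebf1, Tcf3, Ikzf1, Ikzf3, Foxo1, Irf4, Irf8, Spib and Pou2af1. All probe sets that the platform annotation assigns to these 10 genes were taken, 25 of the 45037 on the array, and the 10 genes stand among 18193 genes named there. Of the 25 probe sets, 23 passed the filter on low values, a log2 value over 4 in at least 4 of the 9 arrays, and each of the 10 genes had at least 1 that passed. RNA of whole lymphomas was hybridised to 1 Affymetrix mouse array (MOE430 2.0) per tumour, 5 from double-transgenic mice, Eμ-Myc;Eμ-TTP-1, and 4 from Eμ-Myc mice, all on a background of 94% C57BL/6. Both groups carry the Eμ-Myc transgene, which places Myc under the Eμ enhancer of the heavy chain locus and so turns the oncogene on in B cells; Eμ-TTP-1 is present in double-transgenic mice alone. TTP (tristetraprolin, gene Zfp36) promotes the decay of mRNAs with AU-rich elements. The labels call the samples biological replicates, and the ages of the mice are not given in the sources used here. Values are GCRMA intensities on the log2 scale, on which 1 unit is a doubling, and levels are compared between lymphomas for one probe set, never between probe sets.

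B cell development runs through an ordered network of these regulators. Tcf3 encodes the E2A proteins, which act with Ebf1 and Foxo1 to open the B cell program in early progenitors, and Pax5 then commits the cells by activating B cell genes and silencing those of other lineages. The Ikaros family zinc finger proteins Ikzf1 and Ikzf3 (Aiolos) help pre-B cells leave the cycling stage that pre-B receptor signals start. Irf4 and Irf8 act in pre-B and mature B cells, often together with the ETS factors Spi1 (PU.1) and Spib, and Pou2af1 (OCA-B, also OBF-1) is the B cell coactivator of the octamer-binding proteins.

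Arrays were alike: log2 values correlated across probe sets with r of 0.964 to 0.990 among double-transgenic arrays, 0.970 to 0.981 among Eμ-Myc arrays and 0.959 to 0.987 across genotypes. Precision is limited by having 9 arrays. Of the 5 fixed B cell markers, 4 were measured. Cd79a lay between 13.24 and 14.06 and Cd79b between 14.37 and 15.30 in all 9 tumours. Cd22 was 6.99 in double-transgenic replicate 2 and 11.91 or more elsewhere. Blk varied widely in both groups, from 6.64 to 11.15 in double-transgenic and from 6.01 to 11.76 in Eμ-Myc tumours. Summed granulocyte markers were 7.90 to 14.45 on the log2 scale in double-transgenic and 9.74 to 14.18 in Eμ-Myc tumours, and all 8 past the filter of 10 had negative differences, with a median of -2.26 and 0 passed; the part of such cells in the results below was not tested. Of 8 measured T cell markers 5 passed the filter. The summed level of all 8 was 10.45 to 11.94 in double-transgenic and 10.38 to 12.25 in Eμ-Myc tumours. Cd3e lay at 2.75 to 3.43 in all arrays, and Cd2 lay at 7.88 to 12.22. Cd2 made up most of the highest sum, with 12.22 of 12.25 in Eμ-Myc replicate 1. Eμ-Myc replicate 4 had the lowest sum, 10.38, but the highest Cd3d, 8.02, so the sum does not rank the tumours by Cd3d. None of the 6 measured erythroid markers passed the filter. Zfp36 averaged 10.55 ± 0.38 in double-transgenic lymphomas (SD, n = 5) and 10.57 ± 0.41 in Eμ-Myc lymphomas (SD, n = 4), which does not check the genotype labels, because it is not known whether its probes lie in the transgene.

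Ebf1 was the one factor whose levels did not overlap between the genotypes, while the other 9 did. None of the 10 passed the test. The groups were compared with limma, with Benjamini-Hochberg adjustment over all 10172 genes tested, and 0 genes (0%) had an adjusted p under 0.05. An unadjusted limma p under 0.05 was reached by 577 genes, 5.67% (3.87% higher and 1.8% lower in double-transgenic tumours), and Ebf1 was the one of the 10 factors among them. Of the factors, 5 had a positive and 5 a negative log2 difference, double-transgenic minus Eμ-Myc, where 58.9% of all genes had a positive one. Their median difference was -0.02, beside 0.05 over all genes tested. In whole tumours, fewer cells of a type and less RNA per cell cannot be told apart.

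**Figure D1:**
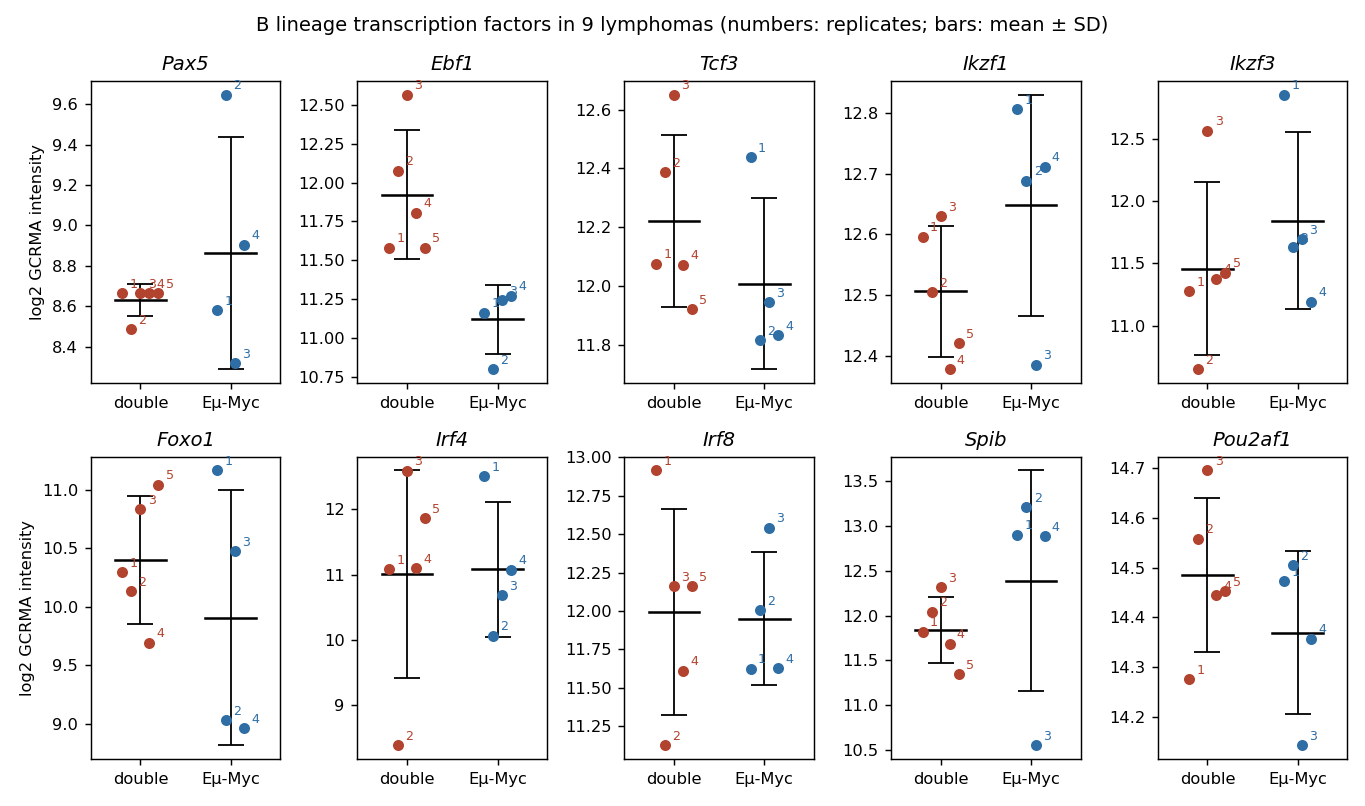
Levels of the 10 factors in each lymphoma, 1 panel per gene. The vertical axis is the log2 GCRMA intensity of the probe set that represents the gene and differs between panels; points are lymphomas numbered by replicate (red, double-transgenic, n = 5; blue, Eμ-Myc, n = 4), and black bars are the mean ± SD. The groups are separate in the Ebf1 panel and overlap in the other 9.

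Ebf1, a pioneer factor that opens chromatin at B cell genes, had higher levels in every double-transgenic tumour than in any Eμ-Myc tumour. Its representing probe set, the one with the highest mean, read 11.58, 12.08, 12.57, 11.81 and 11.58 in double-transgenic replicates 1 to 5, against 11.16, 10.80, 11.24 and 11.27 in Eμ-Myc replicates 1 to 4. Double-transgenic replicate 3 was highest and Eμ-Myc replicate 2 lowest. The means were 11.92 ± 0.41 (SD, n = 5) in double-transgenic and 11.12 ± 0.22 (SD, n = 4) in Eμ-Myc lymphomas, a log2 difference of 0.80 (SE 0.22, 95% interval 0.29 to 1.31), or 1.75-fold (1.22 to 2.49). An exact two-sided permutation over all splits of the arrays gave p = 0.00794, the smallest it can give, but the limma adjusted p over all genes was 0.845, so the difference did not pass. Groups separated in this direction for 120 of the 10172 genes tested, 1.18%.

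The 3 further Ebf1 probe sets that passed the filter separated the genotypes too, where 1.27% of all probe sets tested did so in this direction and 4.16% had an unadjusted limma p under 0.05 in it. The next by mean level read 11.36, 12.18, 12.35, 11.74 and 11.37 in double-transgenic replicates 1 to 5 and 10.93, 10.57, 10.95 and 11.14 in Eμ-Myc replicates 1 to 4. For the third the gap was narrow: its lowest double-transgenic value was 11.20 and its highest Eμ-Myc value 11.06. The widest difference was that of the fourth, 1.12 on the log2 scale (SE 0.30), with 9.81, 10.79, 11.03, 10.46 and 9.81 in double-transgenic and 9.10, 8.87, 9.41 and 9.65 in Eμ-Myc tumours. The differences of the 4 probe sets ran from 0.71 to 1.12, each with a limma adjusted p of 0.812 over all probe sets, and their values correlated across the 9 arrays with r from 0.85 to 0.99. They measure the same gene in the same RNA and are not independent. The remaining probe set stayed at 1.91 to 2.26 in 8 arrays and reached 4.32 in double-transgenic replicate 2.

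**Figure D2:**
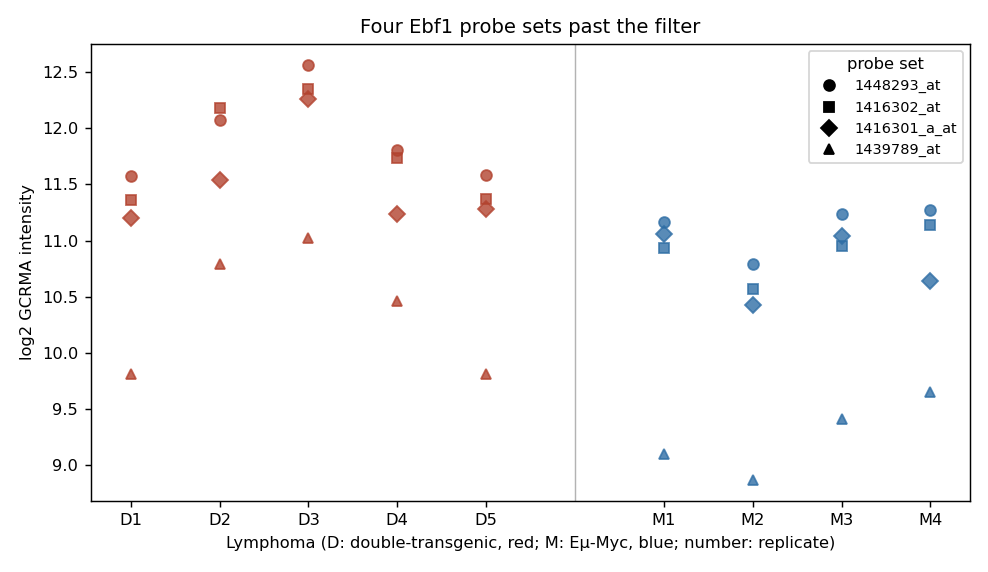
Log2 GCRMA intensity (vertical axis) of the 4 Ebf1 probe sets past the filter in each lymphoma (horizontal axis; D1 to D5, double-transgenic, red; M1 to M4, Eμ-Myc, blue), with 1 marker shape per probe set. For each shape the lowest red point lies above the highest blue point, from 9.81 against 9.65 for the triangles to 11.58 against 11.27 for the circles.

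Since Ebf1 separated the genotypes, its start regions in RefSeq (GRCm38.p6) are shown, 250 bases before to 50 after each of its start sites, 5′ to 3′ on the plus strand; 9 of the 10 factors had an entry in the table. Capitals mark matches, on either strand, to any of 8 short motifs: the octamer ATGCAAAT and its core TGCAAAT, which overlap each other, the E2A E-box CAGGTG, the EBF1 palindrome (TCCC, any 2 bases, GGGA), the forkhead motif GTAAACA, the Ikaros core TGGGAA, the interferon response motif (GAAA, any 2 bases, GAAA) and the ETS-IRF composite (GGAA, any 2 bases, GAAA). The motifs were chosen with these sequences in view.
Ebf1 first start, chr11:44617850-44618149: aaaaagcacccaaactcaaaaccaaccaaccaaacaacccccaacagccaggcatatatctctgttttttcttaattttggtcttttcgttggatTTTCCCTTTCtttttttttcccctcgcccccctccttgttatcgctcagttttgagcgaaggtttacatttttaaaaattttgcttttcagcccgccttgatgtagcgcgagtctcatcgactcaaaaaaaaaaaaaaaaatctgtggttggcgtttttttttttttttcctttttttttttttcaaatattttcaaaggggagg
Ebf1 second start, chr11:44619978-44620277: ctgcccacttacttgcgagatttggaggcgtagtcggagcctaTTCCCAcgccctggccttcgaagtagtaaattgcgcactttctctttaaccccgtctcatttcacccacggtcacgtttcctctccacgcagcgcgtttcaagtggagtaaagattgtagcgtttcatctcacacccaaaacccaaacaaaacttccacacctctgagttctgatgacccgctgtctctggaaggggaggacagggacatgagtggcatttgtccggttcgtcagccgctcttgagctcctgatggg
The first region held 1 interferon response motif, found in 3.44% of all 32851 start regions, and the second 1 Ikaros core, found in 25.6%. The first has a GC content of 36.7% and the second one of 53%, beside a median of 52.7% over all start regions.

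Tcf3, whose E2A proteins stand above Ebf1 in early B cells, had overlapping levels. It read 12.08, 12.39, 12.65, 12.07 and 11.92 in double-transgenic replicates 1 to 5, against 12.44, 11.82, 11.95 and 11.83 in Eμ-Myc replicates 1 to 4. The 3 highest were double-transgenic replicates 2 and 3 with Eμ-Myc replicate 1. Between genotypes the log2 difference was 0.21 (95% interval -0.23 to 0.66, limma adjusted p = 0.897), and the other 2 probe sets gave 0.41 and 0.35. Its 3 probe sets correlated across arrays with r from 0.94 to 0.99. Among its partners and the Id proteins, which hold E proteins off DNA, 6 of 8 genes were tested, 3 were higher, 3 were lower and 0 passed, with a median difference of 0.04. Lyl1, a basic helix-loop-helix factor of progenitors, had 0.81 (SE 0.32, limma adjusted p = 0.845): double-transgenic tumours lay at 12.42 to 12.92, and Eμ-Myc tumours at 11.22 and 11.24 in replicates 1 and 4 and at 12.60 and 12.39 in replicates 2 and 3. The related E protein genes Tcf4 and Tcf12 had differences of -0.46 (SE 0.34) and -0.10 (SE 0.28), and the inhibitor genes Id2 and Id3 had -0.42 (SE 0.55) and 0.46 (SE 0.41).

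Pax5, the commitment factor, had 2 probe sets that did not follow each other (r = 0.29, n = 9 arrays). The representing one read 8.66, 8.49, 8.66, 8.66 and 8.66 in double-transgenic replicates 1 to 5, against 8.58, 9.65, 8.32 and 8.91 in Eμ-Myc replicates 1 to 4. Eμ-Myc replicate 2 stood highest. The deposited intensity was 405.53 on each of 4 double-transgenic arrays; 0.597% of all probe sets past the filter have the same value on 4 or more arrays, so the SD of 0.08 in this group says little about the spread of Pax5 mRNA. The log2 difference was -0.23 (95% interval -0.79 to 0.32, limma adjusted p = 0.913), and without Eμ-Myc replicate 2 it was 0.03. The weaker probe set had a difference of 0.45 (SE 0.39), with 5.79 to 6.996 in double-transgenic and 5.29 to 6.81 in Eμ-Myc tumours. Direction for Pax5 therefore depended on the probe set.

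Genes known to answer to PAX5 gave no call. Of 10 PAX5-activated genes, 8 were tested, 6 were higher, 2 were lower and 0 passed, with a median difference of 0.26. The B cell adaptor gene Blnk lay at 12.95 to 13.60 in double-transgenic and 12.70 to 13.53 in Eμ-Myc tumours, and the inhibitory receptor gene Cd72 was 7.50 in double-transgenic replicate 2 and 10.13 or more in the other 8. Among 10 PAX5-repressed genes, 6 were tested, 1 was higher, 5 were lower and 0 passed, with a median of -0.26. Notch1, a receptor that directs progenitors to the T cell lineage, had -0.37 (SE 0.22), and Csf1r, a macrophage growth factor receptor, had -0.15 (SE 0.52). Csf1r is also a macrophage marker, and 8 of 9 measured macrophage markers passed the filter. The summed log2 level of all 9 was 12.91 to 14.27 in double-transgenic and 13.17 to 14.81 in Eμ-Myc tumours. Their part in these values was not tested.

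Ikzf1, the Ikaros gene, was among the steadiest of the 10. Its representing probe set read 12.60, 12.50, 12.63, 12.38 and 12.42 in double-transgenic replicates 1 to 5, against 12.81, 12.69, 12.38 and 12.71 in Eμ-Myc replicates 1 to 4. The SD over the 9 arrays was 0.15, which exceeds that of 9.32% of genes tested and of 17.5% of the 1000 genes nearest in mean level. Its log2 difference was -0.14 (95% interval -0.42 to 0.14, limma adjusted p = 0.886). The second probe set, at 5.40 to 6.37, had a difference of 0.36 (SE 0.18) and was not correlated with the first (r = -0.18), so for Ikzf1 too the sign depended on the probe set.

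Ikzf3, which encodes Aiolos, varied more. It read 11.28, 10.65, 12.56, 11.38 and 11.43 in double-transgenic replicates 1 to 5, against 12.85, 11.63, 11.69 and 11.19 in Eμ-Myc replicates 1 to 4. Double-transgenic replicate 3 and Eμ-Myc replicate 1 were high and double-transgenic replicate 2 was low, so the groups overlapped. Between genotypes its log2 difference was -0.38 (95% interval -1.36 to 0.59, limma adjusted p = 0.918), and all 3 probe sets had negative differences, from -0.69 to -0.37. That of the representing one was -0.66 without double-transgenic replicate 3 and -0.05 without Eμ-Myc replicate 1. Of the other Ikaros family genes and chromatin partners, 7 of 8 were tested, 5 were higher, 2 were lower and 0 passed, with a median of 0.08. Ikzf2 (Helios) read 11.20 in double-transgenic replicate 2, 6.62 in Eμ-Myc replicate 4, with the 7 remaining tumours at 4.44 to 4.49. Chd4, the remodelling ATPase of the NuRD complex to which Ikaros binds, had 0.16 (SE 0.25).

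Foxo1, a forkhead factor that the PI3K and AKT pathway keeps out of the nucleus, spanned a wide range within Eμ-Myc tumours. Its representing probe set read 10.30, 10.13, 10.84, 9.69 and 11.04 in double-transgenic replicates 1 to 5, against 11.17, 9.03, 10.48 and 8.96 in Eμ-Myc replicates 1 to 4. Eμ-Myc replicates 2 and 4 were the lowest tumours and Eμ-Myc replicate 1 the highest, a span of 2.20 on the log2 scale. All 3 probe sets past the filter were lowest in Eμ-Myc replicate 4, and they were highest in Eμ-Myc replicate 1 for the first 2 and in double-transgenic replicate 5 for the third; they correlated with r of 0.99 or more. A further one lay at 2.08 to 2.14 in all arrays. The log2 difference was 0.49 (95% interval -0.65 to 1.64, limma adjusted p = 0.912), so a change from 0.635-fold to 3.11-fold was allowed; it was 0.91 without Eμ-Myc replicate 1 and 0.18 without Eμ-Myc replicate 4. Foxo1 lies on chromosome 3, whose 507 other tested genes had median deviations from their 9-array medians of 0.26, -0.07, -0.01, -0.06 and 0.26 in double-transgenic replicates 1 to 5 and of 0.25, -0.18, -0.21 and 0.00 in Eμ-Myc replicates 1 to 4. Foxo1 itself deviated by 0.75 and 0.87 in double-transgenic replicate 5 and Eμ-Myc replicate 1, where the chromosome was high, but by 0.00 in double-transgenic replicate 1, where it was as high, and by -1.33 in Eμ-Myc replicate 4, where it was at 0.00. For the other 9 factors the chromosome medians stayed between -0.09 and 0.05 in every array.

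The start region of Foxo1 is shown because it holds the EBF1 palindrome (capitals), which occurs in 0.904% of all start regions; it is on the plus strand. The match begins 92 bases before the start site.
Foxo1, chr3:52268087-52268386: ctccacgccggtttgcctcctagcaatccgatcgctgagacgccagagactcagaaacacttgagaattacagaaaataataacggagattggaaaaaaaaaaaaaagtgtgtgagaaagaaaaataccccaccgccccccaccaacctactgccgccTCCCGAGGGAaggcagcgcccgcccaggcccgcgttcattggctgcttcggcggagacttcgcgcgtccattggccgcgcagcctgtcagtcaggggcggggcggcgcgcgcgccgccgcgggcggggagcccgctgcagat

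Kinases and relatives around Foxo1 gave no call: 6 of 8 were tested, 4 were higher, 2 were lower and 0 passed, with a median of 0.06. Akt1, a kinase that inactivates FOXO proteins, had -0.30 (SE 0.12, limma adjusted p = 0.845), with 12.31 to 12.59 in double-transgenic tumours and 12.48, 12.80, 12.83 and 12.85 in Eμ-Myc replicates 1 to 4. The related factor gene Foxo4 had 0.63 (SE 0.40) and Foxo3 0.07 (SE 0.31). Of 10 FOXO1 target genes, 9 were tested, 6 were higher, 3 were lower and 0 passed, with a median of 0.19. Rag1 and Rag2, which encode the recombinase that assembles antigen receptor genes, had differences of 2.84 (SE 2.33) and 2.76 (SE 1.31). Gadd45a, a stress response gene, had 1.09 (SE 0.49, limma adjusted p = 0.845), and Klf2, a factor of resting and recirculating lymphocytes, had -0.60 (SE 0.35).

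Irf4 had the widest range of the 10 factors. It read 11.08, 8.39, 12.59, 11.09 and 11.86 in double-transgenic replicates 1 to 5, against 12.51, 10.07, 10.68 and 11.07 in Eμ-Myc replicates 1 to 4. Double-transgenic replicate 2 was the lowest and double-transgenic replicate 3 and Eμ-Myc replicate 1 were the highest, a span of 4.20 on the log2 scale. Its SD of 1.29 exceeded that of 92.0% of genes tested and of 97.8% of the 1000 genes nearest to it in mean level. The log2 difference was -0.08 (95% interval -1.98 to 1.82, limma adjusted p = 0.995), or 0.58 without double-transgenic replicate 2 and 0.40 without Eμ-Myc replicate 1. A second probe set, at 3.25 to 5.81, followed the first with r = 0.86 and had a difference of 0.37 (SE 0.57). The start region of Irf4, on the plus strand, is shown as that of the most variable factor, and none of the 8 motifs occurs in these letters.
Irf4, chr13:30748983-30749282: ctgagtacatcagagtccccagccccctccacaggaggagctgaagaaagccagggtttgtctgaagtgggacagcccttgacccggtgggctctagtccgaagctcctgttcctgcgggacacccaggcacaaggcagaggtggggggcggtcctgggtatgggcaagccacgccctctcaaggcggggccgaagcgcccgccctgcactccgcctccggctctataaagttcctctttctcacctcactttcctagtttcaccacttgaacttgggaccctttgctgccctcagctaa

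Irf8, a relative that acts beside Irf4 in B cells and also in macrophages and dendritic cells, ranged less. It read 12.91, 11.13, 12.16, 11.61 and 12.16 in double-transgenic replicates 1 to 5, against 11.62, 12.005, 12.54 and 11.63 in Eμ-Myc replicates 1 to 4. Double-transgenic replicate 1 was highest and double-transgenic replicate 2 lowest, so both ends of the range lay in the same group. The log2 difference was 0.05 (95% interval -0.77 to 0.87, limma adjusted p = 0.993) and that of the second probe set -0.12, with r = 0.98 between them. Summed macrophage markers, given above, were lowest in double-transgenic replicate 3 at 12.91 and highest in Eμ-Myc replicate 3 at 14.81. Of 9 dendritic cell markers measured 2 passed the filter. The summed log2 level of all 9 was 9.62 to 10.97 in double-transgenic and 9.60 to 11.28 in Eμ-Myc tumours. Bst2 made up most of the highest sum in each group, with 10.88 of 10.97 in double-transgenic replicate 5 and 11.22 of 11.28 in Eμ-Myc replicate 4. The sum therefore says little about the other markers. Xcr1 and Siglech, which mark subsets of these cells, lay at 1.76 to 1.92 in every array. Among the other interferon regulatory factors, 6 of 7 were tested, 2 were higher, 4 were lower and 0 passed, with a median of -0.02. Irf7, induced by interferon, was split within both groups, at 8.54 in double-transgenic replicate 1 and 7.94 in Eμ-Myc replicate 4 and at 3.71 to 5.72 in the rest.

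Spib, an ETS factor of B cells and plasmacytoid dendritic cells, had all 5 double-transgenic levels below those of 3 of the 4 Eμ-Myc tumours. It read 11.82, 12.04, 12.32, 11.69 and 11.34 in double-transgenic replicates 1 to 5, against 12.90, 13.21, 10.55 and 12.89 in Eμ-Myc replicates 1 to 4. Eμ-Myc replicate 3 was the lowest of all 9. For Spib the log2 difference was -0.55 (95% interval -1.73 to 0.64, limma adjusted p = 0.901, exact permutation p = 0.373, two-sided). Without Eμ-Myc replicate 3 it was -1.16, with a limma adjusted p of 0.253 over all genes. Of 8 other ETS factors, 8 were tested, 3 were higher, 5 were lower and 0 passed, with a median of -0.09. Spi1, the closest relative of Spib, read 11.99 in double-transgenic replicate 2 and 9.85 to 10.57 in the other 8, and Elk3, a repressor of the ternary complex family, had 1.29 (SE 0.74). Ets1 lay at 12.97 to 13.72 in double-transgenic tumours, and at 13.90, 13.99, 12.44 and 13.96 in Eμ-Myc replicates 1 to 4, lowest in the tumour with the lowest Spib.

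Pou2af1 varied little between tumours. It read 14.28, 14.56, 14.69, 14.44 and 14.45 in double-transgenic replicates 1 to 5, against 14.47, 14.50, 14.14 and 14.36 in Eμ-Myc replicates 1 to 4. Eμ-Myc replicate 3 was lowest, as for Spib. Its log2 difference was 0.12 (95% interval -0.18 to 0.41, limma adjusted p = 0.917). Its SD of 0.16 exceeded that of 10.4% of genes tested, and of 36.4% of the 1000 genes nearest to it in mean level. Pou2f2 (OCT-2), the measured one of 2 octamer-binding partners, had -0.67 (SE 0.32, limma adjusted p = 0.857), with 7.51, 7.80, 6.59, 7.43 and 7.23 in double-transgenic and 7.86, 8.76, 7.35 and 7.98 in Eμ-Myc tumours. In mouse B cells Spib is known as a target of the Pou2af1 protein, and the start regions of both genes are shown because each holds the octamer core (capitals), found in 4.02% of all start regions. The full octamer, found in 1.74%, is in neither.
Spib, chr7:44532022-44532321, minus strand: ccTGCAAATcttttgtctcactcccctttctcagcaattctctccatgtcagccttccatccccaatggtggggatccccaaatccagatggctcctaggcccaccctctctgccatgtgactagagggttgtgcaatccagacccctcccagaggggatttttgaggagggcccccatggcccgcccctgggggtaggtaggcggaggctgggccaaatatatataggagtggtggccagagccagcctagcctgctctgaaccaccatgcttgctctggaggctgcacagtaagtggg
Pou2af1, chr9:51213440-51213739, plus strand: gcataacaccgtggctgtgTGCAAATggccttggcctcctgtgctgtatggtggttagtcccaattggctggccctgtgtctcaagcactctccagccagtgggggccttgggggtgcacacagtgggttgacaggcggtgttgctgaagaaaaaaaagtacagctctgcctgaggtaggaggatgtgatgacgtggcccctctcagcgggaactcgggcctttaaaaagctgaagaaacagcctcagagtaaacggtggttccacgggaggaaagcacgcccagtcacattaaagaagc
Across the 9 lymphomas Spib and Pou2af1 had an r of 0.53, which did not pass (exact two-sided permutation p = 0.142, adjusted over 36 pairs 0.555; rho = 0.53) and was 0.08 without Eμ-Myc replicates 2 and 3.

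**Figure D3:**
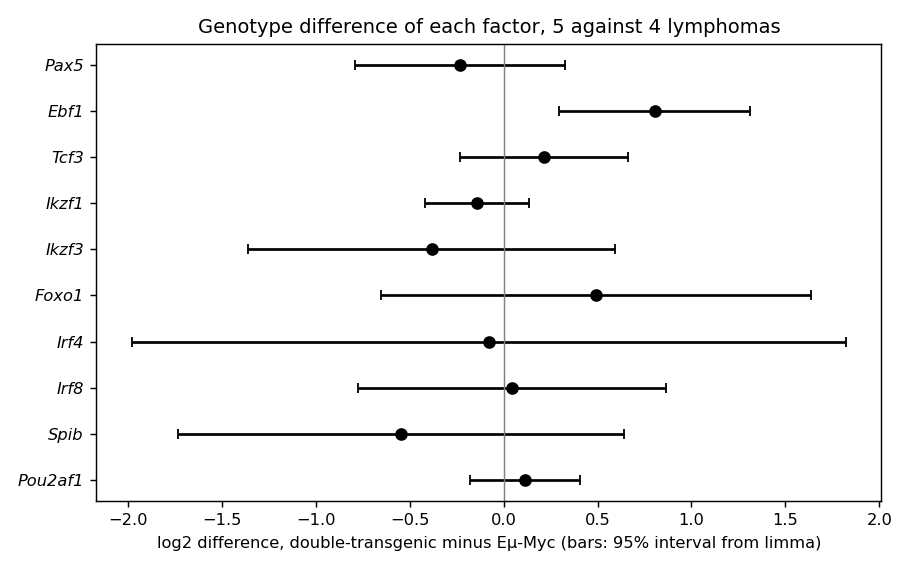
Log2 difference of each factor, double-transgenic minus Eμ-Myc (horizontal axis; points), with its 95% interval from limma (bars) for 5 against 4 lymphomas. The interval of Ebf1, 0.29 to 1.31, lies above 0 before adjustment over all genes, and the other 9 cross it; that of Irf4, -1.98 to 1.82, is the widest.

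Pairs of factors were next compared across tumours. Of 45 pairs, the 9 with Pax5 were left out because its levels form separate clusters, with Eμ-Myc replicate 2 apart, and 36 were tested with Pearson's r and an exact two-sided permutation. None passed after Benjamini-Hochberg adjustment over the 36, and 3 had an unadjusted exact permutation p under 0.05. Ikzf1 and Spib had r = 0.88 (exact permutation p = 0.00230, adjusted 0.0828; rho = 0.88, p = 0.00308, adjusted 0.111), and r was 0.87 without the 2 tumours farthest from the median of Ikzf1. With the mean of each gene's probe sets that r was 0.14. Ikzf3 and Irf4 had r = 0.79 (exact permutation p = 0.0118, adjusted 0.213; rho = 0.58, p = 0.108, adjusted 0.759), and both were highest in double-transgenic replicate 3 and Eμ-Myc replicate 1 and lowest in double-transgenic replicate 2; r was 0.62 without the 2 tumours farthest from the median of Ikzf3. Ebf1 and Tcf3 had r = 0.71 (exact permutation p = 0.0305, adjusted 0.366; rho = 0.53, p = 0.148, adjusted 0.759) and 0.28 without double-transgenic replicate 3 and Eμ-Myc replicate 2, so the relation rests on those tumours. Without Eμ-Myc replicate 1, where Tcf3 was high and Ebf1 was not, their r was 0.94 (exact permutation, adjusted p = 0.0196).

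Factors were compared with genes of a list chosen for each in the same way. Ebf1 was paired with EBF1-activated genes, Foxo1 with FOXO1 target genes and Pax5 with PAX5-activated and PAX5-repressed genes. Irf4 was paired with plasma cell genes, which are not a list of its targets. Of 36 such pairs, 17 had no separate clusters in either gene. All pairs with Pax5 were left out by this rule, so no relation of Pax5 to its listed genes was tested. After adjustment over the 17, 4 pairs passed. The lists were chosen with earlier results of these data known, which the adjustment does not take into account. Foxo1 ran with the recombinase genes. Rag1 read 10.66, 10.59, 15.23, 13.39 and 14.26 in double-transgenic replicates 1 to 5, against 14.76, 3.05, 13.63 and 8.49 in Eμ-Myc replicates 1 to 4, so the Eμ-Myc tumours with the lowest Foxo1, replicates 2 and 4, also had the lowest Rag1. The r was 0.83 (exact permutation p = 0.00327, adjusted 0.0278; rho = 0.88, p = 0.00308, adjusted 0.0261), and 0.61 without those 2 tumours. Rag2 read 6.93, 7.31, 10.96, 8.18 and 9.14 in double-transgenic and 7.76, 2.45, 8.27 and 4.51 in Eμ-Myc tumours, with an r of 0.81 (exact permutation p = 0.00697, adjusted 0.0395; rho = 0.70, p = 0.0433, adjusted 0.147). Without the same 2 tumours the r of Rag2 was 0.40. Both relations thus rest on them in large part. As deviations from each genotype's mean both had an r of 0.81 and did not pass (approximate permutation across genotypes, adjusted p = 0.0549). With 1 array left out, both passed without double-transgenic replicate 1 or 4 and neither passed without any other array (exact permutation, adjusted p up to 0.0934 for Rag1 and 0.148 for Rag2). Il7r, the gene of the interleukin 7 receptor and another known FOXO1 target, had an r of 0.37 (exact permutation p = 0.322, adjusted 0.421).

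Vpreb3, which encodes a protein associated with the pre-B receptor and is listed among EBF1-activated genes, followed Ebf1 with r = 0.80 (exact permutation p = 0.00939, adjusted 0.0399; rho = 0.65, p = 0.0666, adjusted 0.185). It read 12.45, 13.09, 13.07, 12.44 and 12.09 in double-transgenic replicates 1 to 5, against 12.24, 12.23, 11.80 and 11.91 in Eμ-Myc replicates 1 to 4. Double-transgenic replicates 2 and 3 were highest in both genes. Taken as deviations from each genotype's mean, r was 0.60 (approximate permutation across genotypes, adjusted p = 0.216), so the relation did not pass within the genotypes. With 1 array left out it passed without Eμ-Myc replicate 2 and in no other case (exact permutation, adjusted p up to 0.184). All 7 tested genes of the 9 EBF1-activated ones had positive differences, beside 58.9% of all genes, and 0 passed; their median was 0.40, but 0.07 without double-transgenic replicate 2, 0.15 without double-transgenic replicate 5 and 0.13 without Eμ-Myc replicate 4. Cd79a (0.11, SE 0.18), Cd79b (0.12, SE 0.21) and Blk (0.75, SE 1.21) were among them. The same 7 include Igll1, which was high in only some tumours of each group, as described below for double-transgenic replicate 2.

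Irf4 and Xbp1, a factor of the secretory program of plasma cells, ran in opposite directions. Xbp1 read 11.69, 13.24, 10.60, 11.76 and 12.05 in double-transgenic replicates 1 to 5, against 10.76, 12.27, 12.15 and 12.31 in Eμ-Myc replicates 1 to 4. It was highest where Irf4 was lowest, in double-transgenic replicate 2, and lowest where Irf4 was highest. The r was -0.91 (exact permutation p = 0.00109, adjusted 0.0185; rho = -0.88, p = 0.00308, adjusted 0.0261), and -0.76 without double-transgenic replicates 2 and 3. As deviations from each genotype's mean it was -0.91 (approximate permutation across genotypes, adjusted p = 0.0170). The relation did not pass without double-transgenic replicate 2, without double-transgenic replicate 3 or without Eμ-Myc replicate 1 (exact permutation, adjusted p = 0.0545, 0.0750 and 0.0598). Prdm1, the master regulator of plasma cells, and Sdc1, the plasma cell surface proteoglycan, ran the same way as Irf4, with r of 0.68 and 0.75 that did not pass (exact permutation, adjusted p = 0.103 and 0.0721). The other 2 plasma cell genes compared with Irf4 did not pass either: Jchain, the joining chain of secreted antibodies, had r = 0.42 and Mzb1, a chaperone of antibody secretion, r = -0.53 (exact permutation, adjusted p = 0.394 and 0.240). Between genotypes, 6 of 8 plasma cell genes were tested, 1 was higher, 5 were lower and 0 passed, with a median of -0.52.

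**Figure D4:**
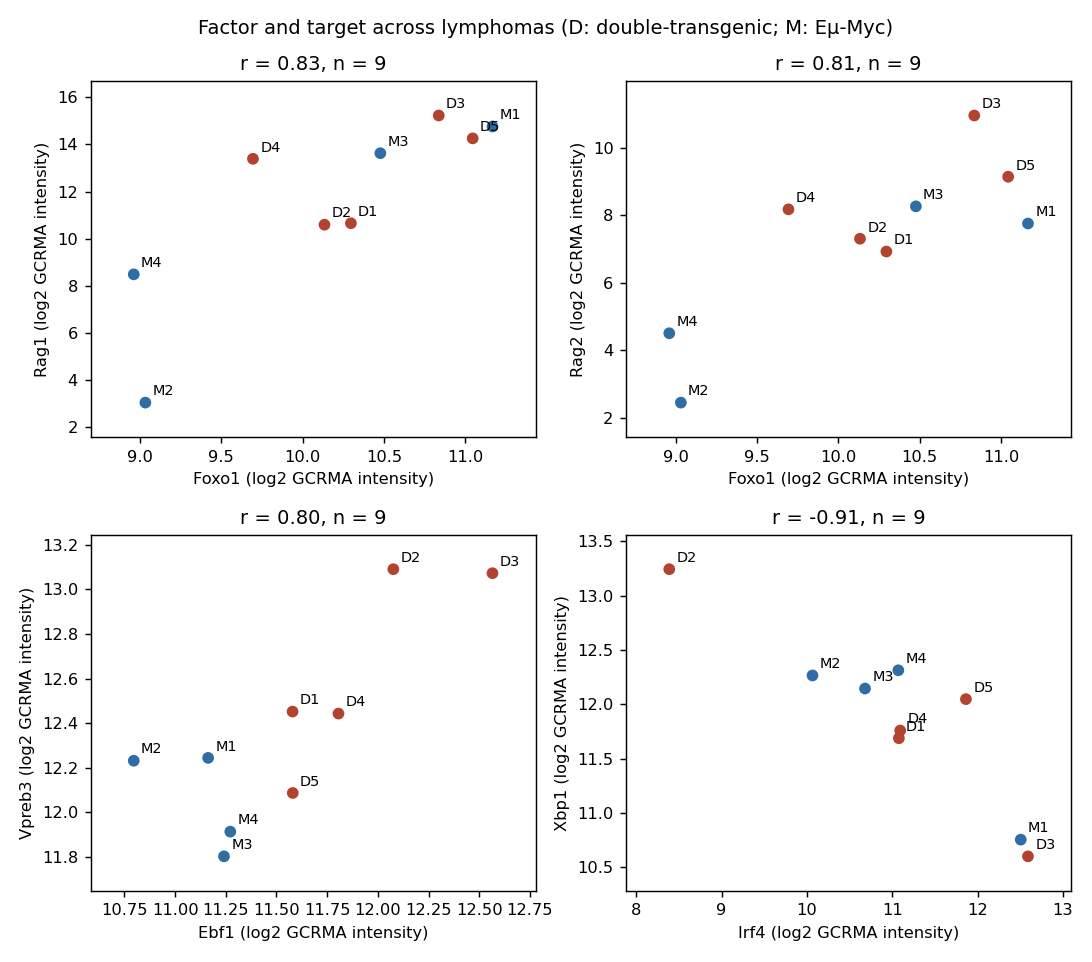
The 4 pairs of a factor (horizontal axis) and a gene of its list (vertical axis) that passed, both as log2 GCRMA intensity, with 1 point per lymphoma (D1 to D5, double-transgenic, red; M1 to M4, Eμ-Myc, blue) and Pearson's r over 9 lymphomas. M2 and M4 lie at the low end of both Foxo1 panels, and D2 stands apart at the top left of the Irf4 panel.

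Double-transgenic replicate 2 combined the lowest Irf4, Ikzf3 and Irf8 of the 9 tumours with a set of other named genes at their extremes. The surrogate light chain genes Vpreb1 and Igll1 read 14.79 and 15.34 there, 12.33 and 12.10 in double-transgenic replicate 4 and 9.69 and 11.00 in Eμ-Myc replicate 4; the 6 remaining tumours had at most 3.82 and 6.14. Irf4 in those 3 tumours was 8.39, 11.09 and 11.07, so a high surrogate light chain did not always go with a low Irf4. Erg, an ETS factor of progenitors, was 11.08 there, 10.66 in double-transgenic replicate 4 and 3.90 to 6.16 elsewhere. These genes, and the others named below as extreme in this tumour, were singled out after their values were seen. Etv6, another ETS factor of early blood cells, was 12.09 in double-transgenic replicate 2 and 9.36 to 10.47 elsewhere. Kit, the receptor of early progenitors, was 10.73 there and 4.24 to 7.65 in the others.

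Several regulators and surface genes were at their lowest in the same tumour. Gfi1, a repressor of lymphoid and myeloid progenitors, was 3.17 in double-transgenic replicate 2 and 9.91 to 10.98 in the other 8. Bach2, which restrains plasma cell differentiation, was 9.64 there and 11.77 to 13.76 elsewhere. The signalling scaffold gene Bank1 was 8.43 against 11.51 to 13.63, the receptor gene Slamf7 was 2.88 against 8.86 to 12.35, and Ccr7, a homing receptor, was 3.28 against 9.26 to 11.28. Lef1, a factor of early lymphocytes, was low in double-transgenic replicate 2 (4.90) and lower still in Eμ-Myc replicate 2 (2.06), against 10.38 to 12.39 elsewhere. In that Eμ-Myc tumour Rag1 and Sox4, a factor of early B cells, were also at their lowest, Sox4 at 9.41 against 13.39 to 14.84 in the others. In contrast, Ebf1, Tcf3, Ikzf1 and Pou2af1 in double-transgenic replicate 2 deviated by 0.50, 0.31, -0.09 and 0.11 from their 9-array medians. Granulocyte markers summed to 14.45 on the log2 scale in this tumour, against 7.90 to 10.80 in the other double-transgenic and 9.74 to 14.18 in Eμ-Myc tumours, with 8 of 10 past the filter, and stromal and endothelial markers summed to 15.42, against 11.59 to 14.92 in the other double-transgenic and 12.83 to 15.57 in Eμ-Myc tumours, with 8 of 8 past it; their part in these levels was not tested.

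**Figure D5:**
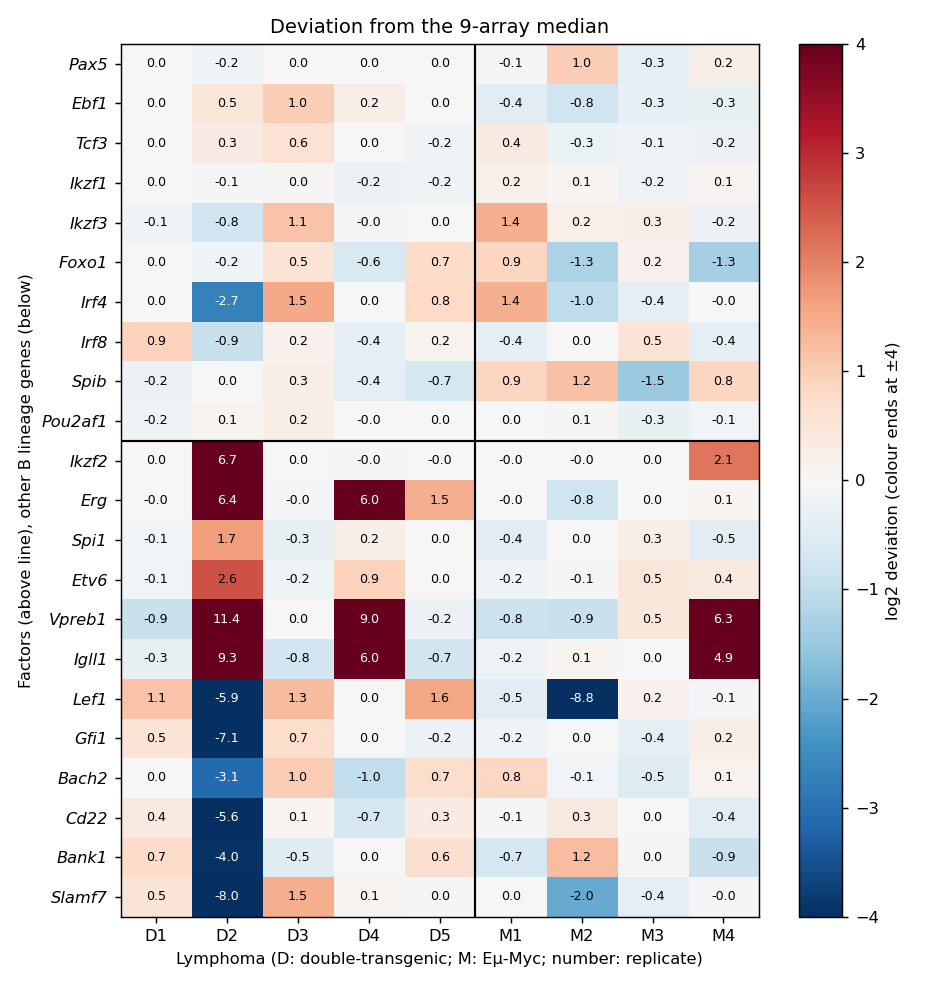
Log2 deviation of each gene from its median over the 9 arrays (colour, which ends at ±4, and printed number). The 10 factors are above the line and 12 other named genes below it. The axis calls the 12 B lineage genes, although some, such as Erg and Etv6, are factors of progenitors or early blood cells. Columns are lymphomas (D1 to D5, double-transgenic, and M1 to M4, Eμ-Myc). The lower rows were picked after their values were seen, so their pattern in D2 follows from that choice. D2 holds the largest deviation of each lower row but that of Lef1, which is lowest in M2. It also holds the lowest Irf4, at -2.69.

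Of the lists not yet given, other B cell transcription regulators had 18 of 19 genes tested, 11 higher, 7 lower and 0 passed, with a median of 0.09; the highest differences were those of Erg (2.93, SE 1.46), Lef1 (1.89, SE 2.23) and Sox4 (1.62, SE 0.92) and the lowest those of Gfi1 (-1.15, SE 1.52), Klf3 (-1.12, SE 0.61) and Bach2 (-0.57, SE 0.79). Pre-B receptor and recombination genes had 6 of 9 tested, all 6 higher, beside 58.9% of all genes, and 0 passed. Their median was 1.71, which was 0.78 without double-transgenic replicate 2 and 0.89 without Eμ-Myc replicate 2. Apart from Kit, these genes also stand in lists given above: Igll1 and Vpreb3 among EBF1-activated genes, and Rag1, Rag2 and Il7r among FOXO1 targets. Mature B cell genes had 9 of 10 tested, 6 higher, 3 lower and 0 passed, with a median of 0.40 whose sign turned without double-transgenic replicate 5 (-0.13) and without Eμ-Myc replicate 2 (-0.05). Germinal centre genes had 5 of 8 tested, 3 higher, 2 lower and 0 passed, with a median of 0.19. The median over all genes tested was 0.05.

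For each factor but Pax5, the genes outside the set with the most similar levels over the 9 arrays were named by Pearson's r. This is a description with no test, and the values share the same 9 tumours. Pax5 was left out because its levels form separate clusters, with Eμ-Myc replicate 2 apart. Ebf1 was most like Chd9, a chromatin remodelling gene (r = 0.99), and Pou2af1 most like Cyb5d1 (r = 0.99). Irf4 was most like Dcp1a, a component of the mRNA decapping machinery (r = 0.98), and Tmcc1 (r = 0.98), and least like Khk, the gene of ketohexokinase (r = -0.98). Ikzf1 was most like Yod1 (r = 0.98), which was also next for Spib (r = 0.94) after Mctp2 (r = 0.96). Foxo1 was most like Zfp53 and Limd2 (r = 0.95 and 0.94) and least like Cmc2 (r = -0.97). Ikzf3 was most like Hps5 (r = 0.95) and least like Cdkn1a, the cyclin-dependent kinase inhibitor p21 (r = -0.96), and Tcf3 was most like Vbp1 and Irf8 most like Luc7l (both r = 0.95). Between 48 genes, for Ikzf1, and 154, for Tcf3, of the 10172 genes had an r over 0.8 with a factor other than Pax5.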

How the data were processed

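The authors deposited 1 table of probe set intensity values, 1 column per lymphoma, made with GCRMA per the submitters' processing notes, whose version the sources used here do not give. The intensity values ran from 1.56 to 123104.7, with array medians of 12.2 to 13.4, so the deposited scale is linear and log2 was taken with no pseudocount. Detection calls and scan data were not used here. Probe sets with 1 gene in the platform annotation (34945) were kept, the 932 with several and 9160 with none were dropped, and 34741 matched RefSeq (GRCm38.p6), used for names and chromosomes. The probe set of highest mean stood for its gene, and genes over log2 4 (intensity 16) in at least 4 arrays were tested with limma 3.58.1 in R 4.3.3 (lmFit, eBayes, two-sided, Benjamini-Hochberg, threshold 0.05), without covariates; the fit was tested on simulated data. Relations used exact permutation over the orders of 9 arrays. Deviations from each genotype's mean were permuted across genotypes too, which makes their p approximate. A gene whose largest gap exceeded 0.5 of its range was taken as clustered and left out. The named genes are the 10 factors, the 3 genes most and the 1 least like each of them, and members of short lists; of these, those a result turns on are printed. The factors, lists and motifs were chosen with earlier results of these data known. Replicate numbers are shared by the groups, and the labels name no pairs. Deviations of same-numbered tumours from their group means had r from -0.09 to 0.20. For number 4 the r of 0.20 was above that with any other Eμ-Myc tumour, at most 0.04. Such values cannot exclude a pairing, and the tumours were not treated as pairs in the main fit. Alternatives were other filters, probe set choices, normalizations, priors, a pseudocount of 16, array weights, a block on replicate number, and each array left out.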

Additional observations from a re-analysis of the deposited data

Results flagged for a closer look

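Single tumours lay apart within their genotype, by Dixon's ratio of the gap to the range, in 21 of 120 groups of values tested for the factors and the other named genes, where chance alone marks about 1 in 20. The count is not set against that share, since many of the genes were named after their values were seen and all share the same 9 tumours. Of the 21, 10 were in double-transgenic replicate 2. Among the factors, Spib read 10.55 in Eμ-Myc replicate 3, with 12.89 to 13.21 in the other Eμ-Myc tumours, and Pax5 read 8.49 in double-transgenic replicate 2, with 8.66 in the other 4 tumours, whose deposited values are identical.

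In double-transgenic replicate 2, the values apart from the other 4 double-transgenic tumours were high for Ikzf2 (11.20, others 4.44 to 4.49) and Spi1 (11.99, others 10.01 to 10.55). They were low for Ccr7 (3.28, others 9.26 to 11.08), Lef1 (4.90, others 10.84 to 12.39), Gfi1 (3.17, others 10.05 to 10.98) and Cd72 (7.50, others 11.30 to 12.45). Cd22 (6.99, others 11.91 to 12.93), Bank1 (8.43, others 11.92 to 13.11) and Slamf7 (2.88, others 10.93 to 12.35) were low there as well.

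Among Eμ-Myc tumours, replicate 1 was low in Id2 (8.22, others 10.36 to 10.59), Akt1 (12.48, others 12.80 to 12.85) and Xbp1 (10.76, others 12.15 to 12.31). Replicate 2 was low in Lef1 (2.06, others 10.38 to 11.00), Sox4 (9.41, others 13.39 to 14.16) and Erg (3.90, others 4.70 to 4.79). Replicate 3 was low in Ets1 (12.44, others 13.90 to 13.99) and Ikzf5 (10.47, others 10.80 to 10.86). Replicate 4 was high in Ikzf2 (6.62, others 4.47 to 4.49) and Igll1 (11.00, others 5.84 to 6.14).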

How the results depend on the processing

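None of the 10 factors passed under any of the 20 alternatives to the genotype fit, and 0 list genes did. Ebf1 stayed higher in all of them, by 0.64 to 0.89 (limma adjusted p 0.518 to 0.981). Since its groups do not overlap, leaving 1 array out could not turn this sign. With 1 array left out, 0 to 8 of all genes passed, 8 without Eμ-Myc replicate 3 and 1 without Eμ-Myc replicate 4. Signs turned with the mean of a gene's probe sets for Pax5 (0.11), Ikzf1 (0.11), Irf4 (0.15) and Irf8 (-0.038), and with array weights for Irf4 (0.39). With 1 array left out, differences ran from -0.42 to 0.028 (without Eμ-Myc replicate 2) for Pax5, from -0.48 to 0.58 for Irf4 and from -0.18 to 0.26 for Irf8; the cause of these turns was not tested. The other factors kept their sign: Foxo1 ran from 0.18 to 0.91, Ikzf3 from -0.66 to -0.05, Spib from -1.16 to -0.27, Tcf3 from 0.11 to 0.36, Ikzf1 from -0.23 to -0.09 and Pou2af1 from 0.04 to 0.17. List medians also moved with 1 array left out: 0.07 to 0.62 for EBF1-activated genes, 0.78 to 2.35 for pre-B genes, -0.13 to 0.65 for mature B cell genes, 0.08 to 0.58 for PAX5-activated and -0.36 to -0.04 for PAX5-repressed genes, -0.86 to -0.28 for plasma cell, 0.07 to 0.34 for germinal centre and 0.15 to 0.33 for FOXO1 target genes, and -0.15 to -0.03 for ETS factors. Medians took both signs for the E protein (-0.09 to 0.10), Ikaros (-0.04 to 0.13), FOXO (-0.10 to 0.17) and IRF (-0.12 to 0.05) families and the other regulators (-0.03 to 0.21). With the replicate numbers as a replicate block, 0 factors and 0 genes passed. Of the 36 factor pairs, 0 to 1 passed with 1 array left out. Of the 17 pairs of a factor and a gene of its list, 1 passed as deviations from each genotype's mean. With 1 array left out, 0 to 4 of the 17 passed. The count was 0 without double-transgenic replicates 2 or 3 or Eμ-Myc replicate 1, and 2 without Eμ-Myc replicate 2. It was 1 without double-transgenic replicate 5 or Eμ-Myc replicates 3 or 4. With 8 arrays there are fewer orders to permute.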
